A study of Homo sapiens with 8 samples.

Results

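PLOD3 and the other genes whose products modify or fold new collagen chains were followed in HSC39, a cell line from a human gastric signet ring cell carcinoma, whose TRIM44 transcript had been targeted by small interfering RNA (siRNA). The members were chosen by symbol, as the probe sets whose only annotated symbol is 1 of 10 genes: PLOD1, PLOD2 and PLOD3, COLGALT1 and COLGALT2, P3H1, P3H2, P3H4, CRTAP and SERPINH1. A single probe set was found for each of 9 of these genes, out of 32321 probe sets on the array, 19158 of which carry 1 gene symbol; COLGALT2 is not analysed here. The set was built around PLOD3, which was selected on its low level on the siRNA 9 arrays. Every PLOD3 value that involves those arrays, intervals included, is thus given as a description, without a p-value.

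The study used 8 whole-transcript arrays, 1 per RNA sample, all from HSC39 without any stated genetic change. The control group was 4 arrays of cells given the AllStars negative siRNA, a commercial reagent without a target gene. TRIM44, a tripartite motif protein that handles ubiquitin, was targeted with siRNA 7 on 2 arrays and siRNA 9 on 2 arrays, at 100 nM for 48 h per the labels, whose protocol text does not give a dose for the negative reagent. The labels name no separate cultures, and the series text calls the samples biological replicates, so a p-value here reflects only sample-to-sample spread, and that spread may be technical. The model is limited to 1 cell line, and none of the arrays is of cells without transfection.

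Collagen chains are modified inside the endoplasmic reticulum before they fold into a triple helix. Lysyl hydroxylases (PLOD1, PLOD2, PLOD3) hydroxylate lysines, galactosyltransferases (COLGALT1, COLGALT2) add galactose to hydroxylysine, and PLOD3 can also add the sugars itself. Prolyl 3-hydroxylases (P3H1, P3H2) act on single prolines, P3H1 in a complex with CRTAP, while P3H4 works with the lysyl hydroxylase PLOD1, and SERPINH1, or HSP47, is the chaperone that binds the finished helix. PLOD2 and the prolyl 4-hydroxylase subunits P4HA1 and P4HA2 are known targets of hypoxia-inducible factor (HIF).

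TRIM44 was 11.77 to 12.02 on the negative arrays, 10.85 and 11.27 with siRNA 7, and 11.10 and 11.14 with siRNA 9, in log2 expression levels. Array medians lay between 6.78 and 6.87, and no pair of arrays was identical, with correlations from 0.991 to 0.997. Along the leading principal component (32.5% of the variance) negative array 2 (13.6) lay beside both siRNA 9 arrays (15.5 and 17.2). The other arrays lay between -11.8 and -5.57. Differences and counts that rest on negative array 2 are therefore given with and without it. Of the 7 epithelial markers measured, none passed the test (limma adjusted p from 0.552) in the comparison of siRNA 9 with negative siRNA. EPCAM, an epithelial adhesion molecule, stood at 12.25 to 12.59 in all 8 samples. The 10 mesenchymal and 7 leukocyte and endothelial markers also had no member past 0.05. The files give no background signal, so a marker cannot be called absent. In these bulk samples fewer cells of a type and less RNA per cell cannot be told apart.

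The stretches just before the starts of the lysyl hydroxylase genes are shown because the 3 genes had different levels on the siRNA 9 arrays. They are the 250 bases before each start in the RefSeq promoter table (GRCh38.p14), written 5′ to 3′ on the gene's strand, and capitals mark the hypoxia core motif ACGTG on either strand (CACGT in reverse).
PLOD1, chr1:11934467-11934716, plus strand: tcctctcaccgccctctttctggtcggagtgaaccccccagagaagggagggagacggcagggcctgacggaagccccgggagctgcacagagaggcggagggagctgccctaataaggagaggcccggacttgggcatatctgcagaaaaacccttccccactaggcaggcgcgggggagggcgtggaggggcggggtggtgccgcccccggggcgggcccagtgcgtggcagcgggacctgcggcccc
PLOD2, chr3:146161185-146161434, minus strand: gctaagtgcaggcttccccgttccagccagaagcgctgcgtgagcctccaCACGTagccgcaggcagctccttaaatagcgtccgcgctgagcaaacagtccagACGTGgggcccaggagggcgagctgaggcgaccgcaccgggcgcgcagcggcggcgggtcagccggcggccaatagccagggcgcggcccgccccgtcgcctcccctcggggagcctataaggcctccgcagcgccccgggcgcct
PLOD3, chr7:101217582-101217831, minus strand: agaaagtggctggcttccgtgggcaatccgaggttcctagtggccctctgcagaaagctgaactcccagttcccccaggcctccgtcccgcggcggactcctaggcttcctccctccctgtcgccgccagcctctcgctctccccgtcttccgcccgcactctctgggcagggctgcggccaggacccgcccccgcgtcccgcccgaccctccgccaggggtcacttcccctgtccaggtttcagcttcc
PLOD2 held the core 2 times, with first bases 200 and 146 bases before the start, and PLOD1 and PLOD3 held no copy in these windows. Among all 35116 windows of this length in the table, 18.5% held at least 1 copy. Windows were found for 8 members, 10 in all since P3H2 and SERPINH1 each have 2, and a copy stood in 3 of them, of PLOD2, P3H2 and SERPINH1. The P3H2 pair of matches is 1 palindrome read on both strands. GC content was 70.4% for PLOD1, 72.4% for PLOD2 and 69.2% for PLOD3, against a median of 58% over all windows. The GC box GGGCGG, on either strand, occurred 4 times for PLOD1, 1 time for PLOD2 and 3 times for PLOD3, and 42.6% of all windows held it. CCAAT, on either strand, was found 1 time in the PLOD2 window and in neither of the others (32% of all windows), and TATAAA in none of the 3 (10.7%). A match is a description of the letters and not evidence of binding.

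PLOD3, the lysyl hydroxylase that also carries glycosyltransferase activity, was about 1 log2 unit lower on both siRNA 9 arrays. Its log2 level was 10.81, 10.58, 10.76 and 10.85 on negative arrays 1 to 4, 10.83 and 11.10 with siRNA 7, and 9.82 and 9.80 with siRNA 9. The siRNA 9 arrays lay below every other array, the siRNA 7 arrays lay within or above the negative range, and the lowest control was negative array 2. The group means were 10.75 ± 0.12 (SD, n = 4), 10.96 ± 0.19 (SD, n = 2) and 9.81 ± 0.01 (SD, n = 2). The siRNA 9 difference was -0.94 (SE 0.11), 52.2% of the negative level with a 95% interval of 44.3% to 61.4%. For siRNA 7, whose arrays did not enter the choice of the gene, the difference was 0.21 (SE 0.11, 95% interval -0.02 to 0.45, limma adjusted p = 0.734), and it shares the negative arrays with the value for siRNA 9. TRIM44 differed from negative siRNA by -0.78 with siRNA 9 (limma adjusted p = 0.0155, up to 0.240 over the settings tried) and -0.84 with siRNA 7 (0.0405, up to 0.262), while PLOD3 was 1.15 higher with siRNA 7 than with siRNA 9 (95% interval 0.88 to 1.42). With both reagents combined the PLOD3 difference was -0.36 (95% interval -0.90 to 0.18). Leaving out single arrays gave siRNA 9 differences between -0.99 and -0.91.

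**Figure D1:**
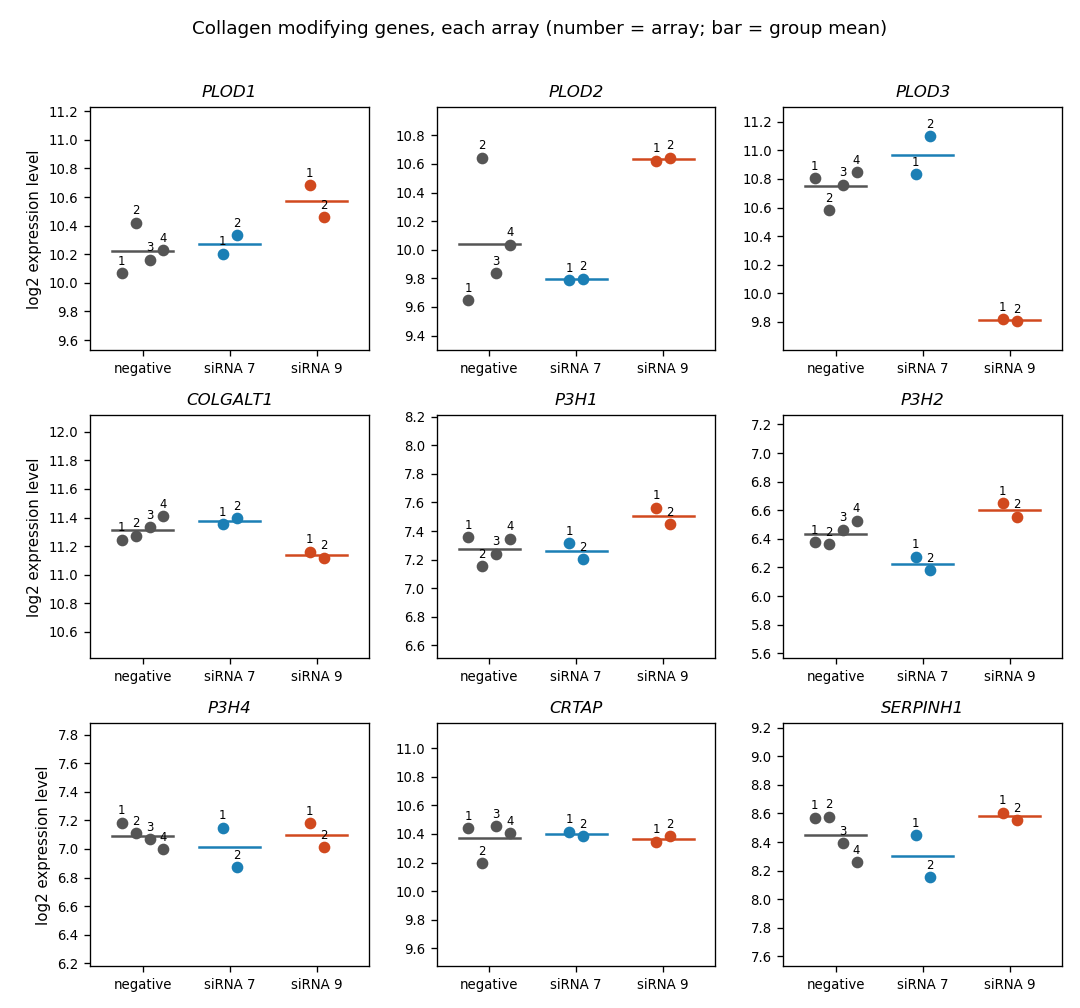
Log2 expression level of the 9 measured genes (y axis, with a span of equal size in each panel) on each array (points, numbered as in the labels) by group (x axis), with the group mean as a bar. PLOD3 on the siRNA 9 arrays, at 9.82 and 9.80, lies below all other arrays, while PLOD2 on negative array 2, at 10.64, lies with the siRNA 9 arrays.

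PLOD2 and PLOD1, the other lysyl hydroxylases, had higher means with siRNA 9 than with negative siRNA. Neither passed with all arrays at equal weight, and both passed with array weights or without negative array 2. Without negative array 2, 5.57% of all probe sets passed with siRNA 9, 3.7% as higher, against 0.924% with all arrays. Array weights also raised the count over all probe sets, which is given at the end. PLOD2, which hydroxylates the telopeptide lysines used for cross-links, was 9.65, 10.64, 9.84 and 10.04 on negative arrays 1 to 4, 9.79 and 9.80 with siRNA 7, and 10.62 and 10.64 with siRNA 9. Negative array 2 thus equalled the siRNA 9 arrays, and the groups overlapped. Its difference with siRNA 9 was 0.59 (SE 0.21, 95% interval 0.14 to 1.04, limma adjusted p = 0.216). Without negative array 2 it was 0.79 (adjusted p = 0.00309) and with array weights 0.76 (0.00523), and adjusted p over all settings tried ran from 0.00309 to 0.668. The spread of PLOD2 within groups, an SD of 0.34, stood at the percentile 98.8 of all probe sets, whose median SD was 0.12.

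PLOD1, which hydroxylates lysines within the helix, was 10.07, 10.42, 10.16 and 10.23 with negative siRNA, 10.20 and 10.33 with siRNA 7, and 10.69 and 10.46 with siRNA 9. Both siRNA 9 arrays lay above all negative arrays, where negative array 2 was again the highest. The siRNA 9 difference was 0.35 (SE 0.11, limma adjusted p = 0.183), and 0.42 without negative array 2 (adjusted p = 0.0341). Across settings adjusted p ran from 0.0134 with array weights to 0.765 without siRNA 9 array 1. With siRNA 7 neither gene passed, at -0.25 for PLOD2 (95% interval -0.70 to 0.20, limma adjusted p = 0.916) and 0.05 for PLOD1 (95% interval -0.20 to 0.30, adjusted p = 0.994). PLOD2 was 0.84 lower with siRNA 7 than with siRNA 9 (limma adjusted p = 0.0967). The adjusted p was 0.00399 once negative array 2 was dropped, where 5.48% of all probe sets passed between the reagents. It was 0.0186 under array weights and 0.00495 in a fit of only the siRNA 7 and siRNA 9 arrays. Over 8 arrays the log2 levels of PLOD1 and PLOD2 had r = 0.86, and 0.81 after each group's mean was taken out. With PLOD3 the levels of PLOD2 had r = -0.82 and those of PLOD1 r = -0.77. Without the siRNA 9 arrays, the pair farthest from the PLOD3 median, these were -0.65 and -0.10 over 6 arrays. The second thus rests on the siRNA 9 arrays. Of these 6 arrays negative array 2 had the highest PLOD2 level, 10.64, and the lowest PLOD3 level, 10.58. Among the rest of these 6, negative array 4 had the highest PLOD2 level, 10.04, with PLOD3 at 10.85. Negative array 1 had the lowest PLOD2 level, 9.65, with PLOD3 at 10.81. The highest PLOD2 level among them thus did not go with the lowest PLOD3 level. No r is given without negative array 2, and -0.65 is not to be read as holding without it. How far 0.86 and 0.81 rest on that array is not shown.

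COLGALT1, which adds galactose to the hydroxylysines that the lysyl hydroxylases make, did not pass in any comparison. Its level was 11.25, 11.27, 11.33 and 11.41 with negative siRNA, 11.35 and 11.40 with siRNA 7, and 11.16 and 11.12 with siRNA 9. The siRNA 9 arrays were the lowest 2 of 8 and the siRNA 7 arrays lay inside the negative range. It differed from negative siRNA by -0.18 with siRNA 9 (95% interval -0.37 to 0.02, limma adjusted p = 0.423) and 0.06 with siRNA 7 (95% interval -0.13 to 0.25, adjusted p = 0.986). Its levels had r = 0.91 with those of PLOD3 over 8 arrays and 0.65 over the 6 arrays without siRNA 9. Over 8 arrays this was the most positive correlation with PLOD3 among the 8 other members, where the next highest, CRTAP, had 0.25. Over the 6 arrays without siRNA 9, CRTAP had 0.52.

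Of the 4 members that are prolyl 3-hydroxylase genes or their partners, none passed in any comparison with all arrays at equal weight. P3H3 is not a member and was counted among the other folding partners. P3H2, the enzyme of basement membrane collagen, was 6.37, 6.36, 6.46 and 6.53 with negative siRNA, 6.27 and 6.18 with siRNA 7, and 6.65 and 6.56 with siRNA 9. Its siRNA 7 arrays lay below all controls, as for 7.99% of probe sets, and its siRNA 9 arrays lay above them, as for 13.4%. The share of probe sets with both was not counted. The differences of P3H2 were -0.21 (SE 0.09, limma adjusted p = 0.649) with siRNA 7 and 0.17 (SE 0.09, adjusted p = 0.470) with siRNA 9. The reagents differed for P3H2 by -0.37 (SE 0.11, limma adjusted p = 0.0953, and 0.0419 with array weights). P3H1 was 7.36, 7.15, 7.24 and 7.35 with negative siRNA, 7.31 and 7.20 with siRNA 7, and 7.56 and 7.45 with siRNA 9. Its siRNA 9 arrays lay above the controls, by 0.23 (SE 0.10, limma adjusted p = 0.319). CRTAP, the partner of P3H1, had 10.44, 10.19, 10.45 and 10.41 on the negative arrays, 10.42 and 10.38 with siRNA 7, and 10.34 and 10.38 with siRNA 9. Its lowest array was negative array 2, and the siRNA 9 difference was -0.01 (95% interval -0.22 to 0.20). P3H4, the partner of PLOD1, ran from 6.87 to 7.18 over the 8 arrays, all groups overlapped, and its siRNA 9 difference was 0.00 (95% interval -0.23 to 0.23).

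SERPINH1, the chaperone, was 8.57, 8.58, 8.39 and 8.26 on the negative arrays, 8.45 and 8.16 with siRNA 7, and 8.61 and 8.55 with siRNA 9. The controls alone covered most of its range. SERPINH1 differed by 0.13 with siRNA 9 (95% interval -0.13 to 0.39, limma adjusted p = 0.725) and -0.15 with siRNA 7 (95% interval -0.41 to 0.11, adjusted p = 0.906).

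Counted over the 8 members beside PLOD3, none passed a limma adjusted p of 0.05 in any comparison with all arrays at equal weight. With siRNA 9 the count was 0 of 8, where 0.924% of all 19158 probe sets passed, 0.334% as higher and 0.59% as lower. At an unadjusted p under 0.05 there were 3 (PLOD1, PLOD2 and P3H1), all higher, where 13.6% of probe sets met that level, 8.05% as higher and 5.56% as lower. Arrays of siRNA 9 and negative siRNA did not overlap for 4 of the 8: PLOD1, P3H1 and P3H2 lay above, as did 13.4% of probe sets, and COLGALT1 below, as did 9.23%. The median siRNA 9 difference of the 8 was 0.15, beside 0.02 over all 18404 genes.

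With siRNA 7 the count was 0 of 8, where 0.0679% of probe sets passed, 0.00522% as higher and 0.0626% as lower. Only P3H2, lower, had an unadjusted p under 0.05, where 7.46% of probe sets did, 2.81% as higher and 4.66% as lower. P3H2 was also the only 1 of the 8 whose siRNA 7 arrays lay below all controls, as 7.99% of probe sets did, and 0 lay above, as 6.38% did. The median siRNA 7 difference was -0.05, beside -0.00 over all genes. The siRNA 7 and siRNA 9 comparisons share the negative arrays.

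Between the reagents 0 of 8 passed, where 2.23% of probe sets did, 0.82% as higher with siRNA 7 and 1.41% as lower. At an unadjusted p under 0.05 there were 5, COLGALT1 higher with siRNA 7 and PLOD1, PLOD2, P3H1 and P3H2 lower, where 15.7% of probe sets met that level, 6.15% as higher and 9.58% as lower. The siRNA 7 arrays lay below both siRNA 9 arrays for 5 of the 8, as for 28.7% of probe sets, and above them for COLGALT1 and CRTAP, as for 19.9%. For 4 of the 8 (PLOD2, COLGALT1, P3H2 and SERPINH1) the reagents lay on opposite sides of the negative mean, as for 18.7% of probe sets. With both reagents combined 0 of 8 passed, where 0.00522% of probe sets did, and 0 had an unadjusted limma p under 0.05, where 5.43% did, 2.93% as higher and 2.5% as lower. No member lay wholly above or below the controls on all 4 TRIM44 siRNA arrays, as 1.59% and 1.26% of probe sets did.

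**Figure D2:**
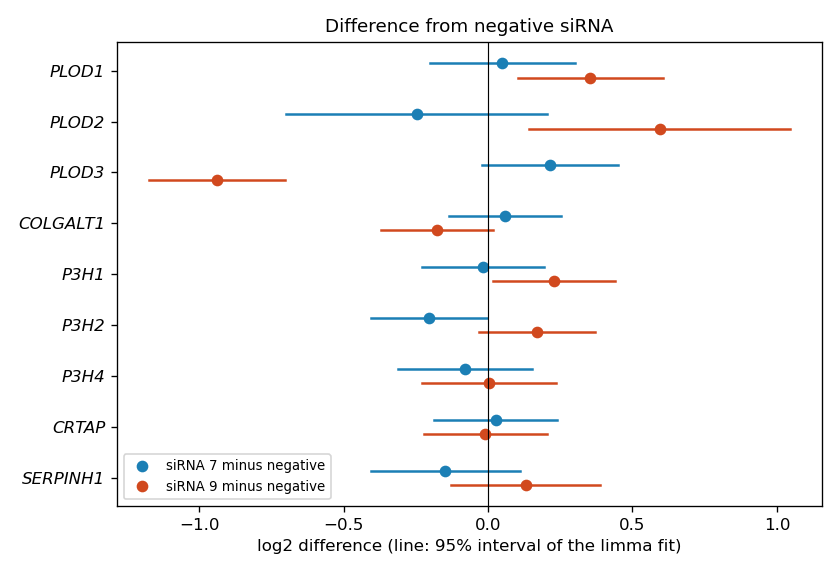
Log2 difference from negative siRNA (x axis) of the 9 measured genes (y axis) for siRNA 7 and siRNA 9, with the point at the estimate and the line at its 95% interval in the limma fit of 3 group means. The siRNA 9 interval of PLOD3 runs from -1.17 to -0.70 and is only a description, since PLOD3 was selected on its siRNA 9 level. The siRNA 7 interval of PLOD2 begins at -0.70. The siRNA 9 intervals of PLOD1, PLOD2 and P3H1 lie above 0 before adjustment.

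The prolyl 4-hydroxylases, which hydroxylate the prolines that stabilise the helix, had siRNA 9 differences above 0 in all 4 subunits measured. Their median was 0.27, none passed with all arrays, and 43.3% of all genes lay below 0 in this comparison. P4HA1, a catalytic subunit, was 9.38, 10.20, 9.53 and 9.53 with negative siRNA, 9.61 and 9.69 with siRNA 7, and 10.28 and 10.32 with siRNA 9. As with PLOD2, negative array 2 stood close to the siRNA 9 arrays and away from the other controls. Its siRNA 9 difference was 0.64 (limma adjusted p = 0.135), and 0.82 without negative array 2 (adjusted p = 0.00098). P4HA2, another catalytic subunit, was 8.83, 9.44, 8.97 and 9.12 with negative siRNA, 8.97 and 8.92 with siRNA 7, and 9.58 and 9.57 with siRNA 9. The difference was 0.48 (limma adjusted p = 0.149), and 0.60 without negative array 2 (adjusted p = 0.00692). P4HA3 had 0.07 and P4HB, the disulfide isomerase that serves as the shared beta subunit, 0.03. With all arrays 0 of 4 subunits passed with siRNA 9, where 0.924% of all probe sets did. At an unadjusted limma p under 0.05 there were 2, both higher, where 13.6% of all probe sets met that level, 8.05% as higher. Without negative array 2, 2 of 4 passed as higher, where 5.57% of all probe sets passed in either direction and 3.7% as higher.

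HIF target genes are described beside them because PLOD2, P4HA1 and P4HA2 are known targets of this factor. All 9 measured had a positive siRNA 9 difference, where 43.3% of all genes lay below 0, with a median of 0.19 beside 0.02 over all genes. All 9 had a negative siRNA 7 difference, where 50.8% of all genes lay below 0, with a median of -0.12 beside -0.00. The siRNA 7 pattern was weaker without negative array 2. NDRG1 then had 0.03 and SLC2A1, the glucose transporter, 0.07, while the other genes stayed below 0, and the median was -0.06. With siRNA 9, 0 of 9 passed and 4 had an unadjusted limma p under 0.05, where 13.6% of all probe sets did. Without negative array 2, 3 of 9 passed, where 5.57% of all probe sets did: KDM3A, a histone demethylase, at 1.24 (limma adjusted p = 0.000653), NDRG1 at 0.65 (0.00832) and the mitophagy receptor BNIP3 at 0.40 (0.0204). KDM3A was 8.43, 9.55, 8.67 and 8.67 on the negative arrays, 8.28 and 8.66 with siRNA 7, and 9.89 and 9.77 with siRNA 9. It was lower with siRNA 7 than with siRNA 9 by -1.36 (limma adjusted p = 0.0314, up to 0.262 with single arrays of either reagent left out). ANKRD37 had 0.38 with siRNA 9 and -0.17 with siRNA 7, and PDK1, which restrains pyruvate oxidation, 0.05 and -0.31. Averaged over the 9 genes, the level relative to the negative mean was -0.21, 0.25, -0.05 and 0.02 on negative arrays 1 to 4, -0.17 and -0.14 with siRNA 7, and 0.31 and 0.31 with siRNA 9. Negative array 2 was the highest control for 7 of the 9. It was also the highest control for PLOD1 and PLOD2 and the lowest for PLOD3. What sets this array apart, and its part in these values, was not tested.

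**Figure D3:**
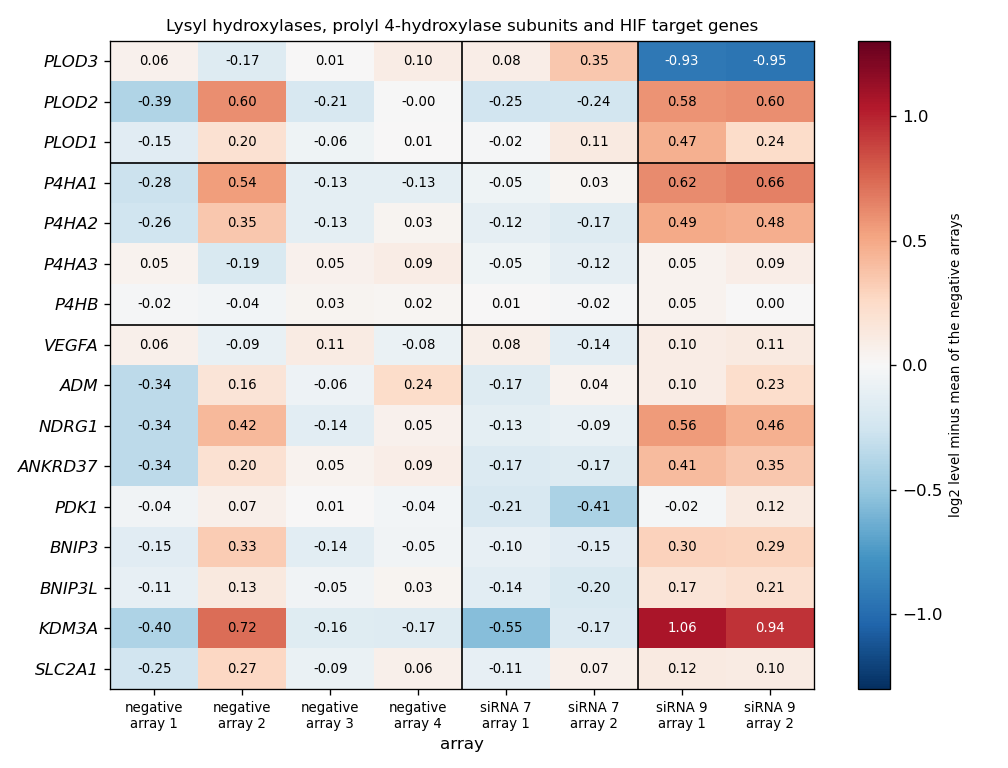
Log2 level minus the mean of the 4 negative arrays (colour and printed number) for the lysyl hydroxylases, the prolyl 4-hydroxylase subunits and the 9 HIF target genes measured (y axis) on each array (x axis). PLOD2 has 0.60 on negative array 2 and 0.58 and 0.60 on the siRNA 9 arrays, and PLOD3 has -0.93 and -0.95 on the siRNA 9 arrays and -0.17 on negative array 2.

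PLOD3 belongs to the oxygenases that use iron and 2-oxoglutarate, and 16 other members of that class were measured. With siRNA 9 none of the 16 passed and 2 had an unadjusted p under 0.05, where 13.6% of all probe sets did. Both are HIF prolyl hydroxylases: EGLN1 at 0.47 (limma adjusted p = 0.172) and EGLN3 at 0.63 (adjusted p = 0.237). Without negative array 2 these 2 passed, at 0.59 (0.0136) and 0.79 (0.034), where 5.57% of all probe sets passed. EGLN1 was 9.76, 10.38, 9.95 and 10.08 with negative siRNA, 9.65 and 9.88 with siRNA 7, and 10.56 and 10.47 with siRNA 9. It was lower with siRNA 7 than with siRNA 9 by -0.75 (limma adjusted p = 0.0460, lost under 8 of 16 settings and up to 0.303 without siRNA 9 array 1). PHYH, which starts the breakdown of phytanic acid, was 6.14 to 6.15 on the negative arrays, 5.58 and 5.52 with siRNA 7, and 6.15 and 6.08 with siRNA 9. It fell with siRNA 7 by 0.59 (limma adjusted p = 0.0405), where 0.0679% of all probe sets passed, 0.0626% as lower. This call was lost under 11 of 15 settings, with adjusted p up to 0.281 without siRNA 7 array 2. The reagents differed for PHYH by -0.56 (adjusted p = 0.0175, up to 0.193 without siRNA 9 array 1). The class had a median siRNA 9 difference of -0.02, with 7 members above 0 and 9 below.

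Among 12 genes of procollagen export, 1 passed with siRNA 9, as lower, where 0.924% of all probe sets passed, 0.59% as lower. KLHL12, the cullin adaptor that helps build transport carriers large enough for procollagen, was 9.02, 8.95, 8.98 and 8.81 with negative siRNA, 8.69 and 8.52 with siRNA 7, and 8.42 and 8.46 with siRNA 9. All 4 TRIM44 siRNA arrays lay below the controls, as for 1.26% of probe sets. It fell by 0.50 with siRNA 9 (SE 0.10, limma adjusted p = 0.0358) and had -0.33 with siRNA 7 (adjusted p = 0.336). The other 11 export genes did not pass with siRNA 9, among them the coat protein SEC24D at 0.37 (adjusted p = 0.103; 0.42 and 0.0174 without negative array 2) and the cargo receptor MIA3 at -0.08. The list median was -0.02. KLHL12 no longer passed without negative array 1 (0.110) or 3 (0.137), without siRNA 9 array 1 (0.437) or 2 (0.328), with the replicate block (0.0992) or with all probe sets tested (0.130).

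Among 8 other folding partners none passed against negative siRNA. FKBP14, a peptidyl-prolyl isomerase of the endoplasmic reticulum that acts on collagen, was 7.27, 7.96, 7.55 and 7.80 with negative siRNA, 8.15 and 8.63 with siRNA 7, and 7.45 and 7.50 with siRNA 9. Its siRNA 7 arrays lay above all controls, as for 6.38% of probe sets, and above both siRNA 9 arrays, as for 19.9%. It differed between the reagents by 0.91 (limma adjusted p = 0.0457, lost under 6 of 16 settings and up to 0.291 without siRNA 9 array 1), while against negative siRNA it had 0.74 for siRNA 7 (adjusted p = 0.205) and -0.16 for siRNA 9 (adjusted p = 0.787). The isomerase FKBP7 had 0.25 with siRNA 9 and 0.17 with siRNA 7, and the ion channel TMEM38B 0.20 and 0.17.

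Of 15 genes for procollagen trimming and cross-linking, 0 passed against negative siRNA with either reagent, and with siRNA 9 there were 3 at an unadjusted p under 0.05, where 13.6% of all probe sets met that level. MEP1A, a metalloprotease of epithelial cells that can trim procollagen, was 8.94, 8.80, 8.80 and 8.69 with negative siRNA, 8.41 and 8.55 with siRNA 7, and 9.24 and 9.28 with siRNA 9. Its siRNA 7 arrays lay below all controls, as for 7.99% of probe sets, and its siRNA 9 arrays lay above them, as for 13.4%. For MEP1A the reagents differed by -0.78 (limma adjusted p = 0.0104, lost under 3 of 16 settings). Its differences from negative siRNA were 0.45 with siRNA 9 (adjusted p = 0.0556) and -0.32 with siRNA 7 (adjusted p = 0.353). LOX, the lysyl oxidase that cross-links hydroxylysine, had 0.30 and -0.25, and MEP1B 0.30 and -0.17.

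The collagen chains themselves, the substrates of the enzymes, showed no member past the threshold. With no background signal given, it cannot be told which of these chains are expressed. For 11 fibril-forming chains the siRNA 9 differences ran from -0.01 to 0.12 with a median of 0.06, and for 9 basement membrane and epithelial chains from 0.01 to 0.11 with a median of 0.03. Without negative array 2 the medians were 0.04 and -0.01, and 5 of the 9 basement membrane and epithelial chains (COL4A2, COL4A4, COL4A5, COL4A6 and COL15A1) had differences below 0. None of these 20 genes had an unadjusted p under 0.05 with siRNA 9 in limma. Examples are COL27A1 at -0.01, COL5A1 at 0.06 and COL2A1 at 0.12 among the former, and COL7A1 at 0.10, COL4A3 at 0.11 and COL18A1 at 0.08 among the latter. Negative array 2 was the lowest control for 10 of the 11 and for 9 of the 9. Of the markers of other cells, the matrix genes FN1, LUM and POSTN had -0.05, -0.37 and 0.11 with siRNA 9, and PTPRC, KDR and CDH5 had 0.06, 0.20 and 0.06. The epithelial markers ELF3, KRT18 and EPCAM had 0.17, -0.10 and 0.07. Summed log2 levels of the 10 mesenchymal markers ran from 60.02 to 60.84 on the negative arrays and from 59.50 to 60.77 with siRNA 9, and from 58.36 to 60.38 with siRNA 7. Single mesenchymal markers had siRNA 7 differences from -0.56 to 0.11, none past the threshold (limma adjusted p from 0.271).

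The genes beside PLOD3 on its chromosome were listed to see whether they differed too. Of the 3 nearest protein-coding genes on each side in the RefSeq table, none passed in any comparison. ZNHIT1, the nearest on one side, was 7.67, 7.69, 7.88 and 7.61 with negative siRNA, 7.64 and 7.84 with siRNA 7, and 7.46 and 7.49 with siRNA 9. Both siRNA 9 arrays were below all others, and 9.23% of probe sets had both below all controls. The siRNA 9 difference of ZNHIT1 was -0.23 (limma adjusted p = 0.346). MOGAT3, the nearest on the other side, had 0.05, and NAT16, VGF, CLDN15 and FIS1 had 0.11, -0.10, 0.03 and -0.18.

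The genes most like PLOD3 were sought among 1329 genes whose SD over the arrays was at least 50% of that of PLOD3. Likeness was Pearson's r of log2 levels over 8 arrays. Of the other members only PLOD2 met this SD limit, so COLGALT1, with r = 0.91, was not eligible. TOMM22, a mitochondrial import receptor, had r = 0.99, SAMD4B, which binds RNA, 0.99, the ubiquitin ligase RNF26 0.98, the SUMO ligase PIAS3 0.98 and the galactosyltransferase B4GALT3 0.98. Over the 6 arrays without siRNA 9 these values were 0.89, 0.88, 0.86, 0.83 and 0.93. Spearman's rho over 8 arrays was 0.86, 0.95, 0.98, 0.98 and 0.98. The siRNA 9 differences of these 5 genes were -1.11, -0.82, -0.51, -0.56 and -0.46, and their siRNA 7 differences 0.26, 0.14, 0.14, 0.06 and 0.17. Most opposed were the lipid scramblase family gene PLSCR4 (r = -0.98), SHCBP1 (-0.96) and RAET1L, a ligand of an NK cell receptor (-0.96), with siRNA 9 differences of 0.80, 0.48 and 0.45. The correlations follow from a search over genes and are descriptions. Over the 6 arrays without siRNA 9 the opposed genes had r = -0.82 for PLSCR4, -0.98 for SHCBP1 and -0.88 for RAET1L.

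**Figure D4:**
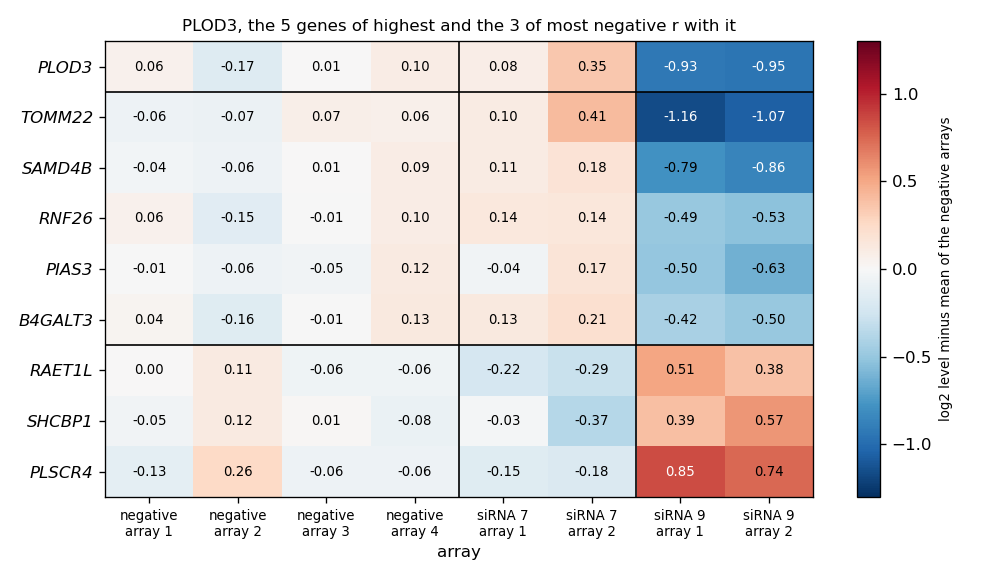
Log2 level minus the mean of the 4 negative arrays (colour and printed number) of PLOD3, of the 5 genes of highest and of the 3 of most negative Pearson's r with it (y axis) on each array (x axis). Genes were drawn from the 1329 compared. The first 6 genes are lowest on the siRNA 9 arrays, where TOMM22 has -1.16 and -1.07, and the last 3 are highest there.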

How the data were processed

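The deposited values are log2 expression levels of each probe set on each array. How the authors normalized and filtered them, and the genome build, is not given in the sources used here. The tool limma is named in the submitters' processing notes. The sorted log2 values of any 2 arrays differ by at most 0.18. Symbols came from the platform annotation through a RefSeq table (19128 of 19158 probe sets found by gene ID). A gene with several probe sets was represented by the brightest.

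Limma 3.58.1 in R 4.3.3 was fitted to all 19158 probe sets with 1 symbol, with 3 group means for each reagent and their difference and 2 groups for both reagents together; p-values are 2-sided and adjusted by Benjamini-Hochberg over all 19158. Differences are log2, with the fit's standard error (SE), and intervals are 95% and not adjusted. The fit was tested on simulated data. The members and lists were chosen with earlier results of these data known. Named beside the members and TRIM44 were, per list, every gene past 0.05 and the 3 of smallest p over the 3 groups; the 5 most like and the 3 most opposed to PLOD3; and its 3 neighbours on each side. P4HB, NDRG1 and BNIP3 were named after their values were seen. Of 114 genes in the 11 other lists 108 were measured. Alternatives were median centring, quantile normalization, the upper 50% of probe sets, all probe sets, a trended and robust prior, weights for each array, a block for the replicate number, only the arrays compared, 3 group means or a random block of siRNA identity for both reagents together, and leaving out each array. Every member has 1 probe set, so averaging probe sets changed nothing. The number of arrays limits the precision. Figures used matplotlib 3.10.9.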

Additional observations from a re-analysis of the deposited data

Results flagged for a closer look

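For 5 of the 9 measured genes both siRNA 7 arrays lay on one side of the negative mean and both siRNA 9 arrays on the other, as they did for 18.7% of all probe sets. The difference of siRNA 7 minus siRNA 9 was 1.15 for PLOD3, which was chosen for its siRNA 9 level and is given without a test. It was -0.84 for PLOD2 (limma adjusted p = 0.0967), -0.37 for P3H2 (0.0953), 0.24 for COLGALT1 (0.285) and -0.28 for SERPINH1 (0.359), none past the threshold.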

How the results depend on the processing

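PLOD3 was selected on its siRNA 9 level, so calls that use those arrays are given only for the 8 other members. With all arrays at equal weight none of the 8 passed in any comparison. With array weights PLOD1 and PLOD2 passed with siRNA 9, and PLOD2 and P3H2 between the reagents. In the fit of only the arrays compared PLOD2 passed between the reagents. Without negative array 2, PLOD1 and PLOD2 passed with siRNA 9 and PLOD2 between the reagents. No other negative array left out gave such a call. Member calls are not listed here for siRNA 9 left with 1 array, whose spread is then taken from the other groups. Counts for siRNA 7 and for both reagents together were 0 under every setting run. PLOD3 minus negative with siRNA 9 ran from -0.99 to -0.88 over 16 settings, and its siRNA 7 minus siRNA 9 difference was 1.29 without siRNA 7 array 1 and 1.02 without array 2.

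The count of all probe sets called with siRNA 9 was 177, against 1067 without negative array 2, 2082 with array weights, 405 with the trended and robust prior, 390 with the upper 50%, 74 and 47 without negative arrays 1 and 3, 44 with the replicate block and 28 with all probe sets. With the replicate number of the labels as a block, 0 of the 8 members beside PLOD3 passed in any comparison. Same-numbered arrays had correlated deviations of 0.02 to 0.31, and groups share 2 numbers, so the numbers were not taken as pairs. TRIM44 lost its call under 3 of 16 settings with siRNA 9 and 10 of 16 with siRNA 7. PHYH with siRNA 7 lost its call under 11 of 15 settings (adjusted p up to 0.281). Between the reagents FKBP14 and KDM3A lost theirs under 6 of 16 settings each, EGLN1 under 8 of 16, MEP1A under 3 of 16 and PHYH under 5 of 15. None of the members or these genes reversed a called direction. The cause of these changes was not tested. The list counts without negative array 2 were added after seeing the data.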
